A study of Drosophila melanogaster with 8 samples.

Results

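Glutathione S-transferases (GSTs) are a family of enzymes that join the tripeptide glutathione to electrophilic molecules, and here they are described in Ras/Src-activated eye tumours of Drosophila larvae raised on a high sucrose diet (HSD) or a control diet (CD). The genes were taken by name: every gene row whose FlyBase identifier maps to a current symbol of the form GstD, GstE, GstO, GstS, GstT or GstZ and a number. There were 35 such genes among 15682 gene rows, with 11 in the delta class (GstD), 14 in the epsilon class (GstE), 3 in the omega class (GstO), 1 in the sigma class (GstS1), 4 in the theta class (GstT) and 2 in the zeta class (GstZ). All 8 RNA sequencing libraries came from pooled, dissected tumour tissue in which clones made by eyeless-driven FLP expressed ras1G12V and GFP through act>gal4 and were homozygous for the csk Q156Stop allele, which removes C-terminal Src kinase, a restraint on Src. The 4 HSD libraries came from larvae on 1.0 M sucrose at day 14 and the 4 CD libraries from larvae on 0.15 M sucrose at day 8, so diet and age cannot be told apart. No tumour-free tissue was among these libraries, and the tissue held clones and any unlabelled neighbouring cells together.

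Delta and epsilon GSTs are the insect classes that act on insecticides and products of oxidative damage, and most of them lie in tandem clusters of related genes. GstD1 is widely used in flies as a reporter of CncC, the fly counterpart of mammalian Nrf2, a transcription factor that is held back by Keap1 and drives detoxification genes. The other classes are shared with vertebrates: omega enzymes reduce disulfides and dehydroascorbate, the sigma enzyme GstS1 conjugates the lipid peroxidation product 4-hydroxynonenal, and zeta enzymes isomerise maleylacetoacetate in the breakdown of tyrosine. Flies lack glutathione reductase, and thioredoxin reductase with thioredoxin reduces their oxidised glutathione.

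Libraries held between 11558860 and 19963565 counts, and between 9645 and 10561 genes had a count. Diet separated the libraries along the first principal component (70.3% of the variance), while the second (10.3%) set HSD replicate 4 and CD replicate 1 apart. Levels are given as CPM, counts scaled to library size with the TMM factors of edgeR. HSD replicate 4 and CD replicate 1 also held the highest summed levels of 9 gut and Malpighian tubule markers. In HSD replicate 4 the sum was 421 CPM, with 2.83 to 8.27 CPM in the other HSD libraries. In CD replicate 1 it was 455 CPM, with 15.5 to 120 CPM in the other CD libraries. Most of both sums came from 1 gene, Jon65Aiv, at 395 CPM in HSD replicate 4 and 380 CPM in CD replicate 1. Fat body markers were at 3431 CPM in HSD replicate 4 and 2389 CPM in CD replicate 1, again the highest of each diet. Glue genes of the salivary gland were at 4710 CPM in CD replicate 1. Expression differed broadly: of 9257 genes tested, 52.1% passed an adjusted p of 0.05, with 25.9% higher and 26.2% lower in HSD. Markers of eye-antennal disc identity were present in both diets, with summed levels of 1269 to 1587 CPM in HSD and 2229 to 2457 CPM in CD (6 of 8 genes called lower). Neuron markers summed to 91.0 to 161 CPM in HSD and 1914 to 2314 CPM in CD, with all 9 genes called lower. Glia markers summed to 505 to 583 CPM in HSD and 648 to 712 CPM in CD (1 of 6 higher, 4 lower). Most of the HSD sum came from nrv2 (mean 334 CPM, not called) and moody (mean 167 CPM, called higher). Log2 fold changes, HSD over CD, were -2.06 in repo, -3.99 in Gs2, -3.74 in Eaat1, -2.46 in wrapper and 1.38 in moody. In such bulk tissue, fewer cells of a type and less RNA per cell cannot be told apart.

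Of the 35 GST genes, 27 could be tested, and 16 of them were called (59.3%, beside 52.1% of all genes tested). Of these calls, 12 were higher (44.4% of tested members, beside 25.9% of all genes) and 4 lower (14.8%, beside 26.2% of all genes). With ribosomal protein scaling, in which libraries are matched on 87 ribosomal protein genes, 8 were higher and 4 lower. Of all 9257 genes tested, that scaling called 1054 higher and 3968 lower. With total counts 10 members were higher and 4 lower, beside 1849 higher and 2998 lower of all genes. The 4 HSD libraries all lay above the 4 CD libraries in 12 of the 27 tested members, against 24.9% of all genes. They all lay below in 4 of the 27, against 25.6% of all genes. These 12 included GstD10 and GstT3, which were not called, and lacked GstE11 and GstO3, which were. At least a 2-fold rise with a call was seen in 7 of the 27 tested members, GstE9 among them, against 7.14% of all genes tested. The median log2 fold change (HSD over CD) was 0.65 over the tested members and 0.00091 over all genes tested. The filter on low counts asked for 0.574 CPM in enough libraries, and some members passed it through 1 diet. GstE9 passed through its 4 HSD libraries and no CD library, GstD10 through 4 HSD and 1 CD, GstD2 through 4 HSD and 2 CD, and GstE2 through 1 HSD and 4 CD. Their differences were in part a condition of being tested, so the counts and medians over tested members, overall and by class, are descriptions. Apart from GstE9, 11 of 26 tested members were higher (42.3%) and 4 lower (15.4%). The 12 members called higher were GstD1, GstD3, GstD9, GstE1, GstE5, GstE6, GstE9, GstE11, GstE13, GstO1, GstO2 and GstO3, and the 4 called lower were GstE2, GstE14, GstS1 and GstZ2.

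**Figure D1:**
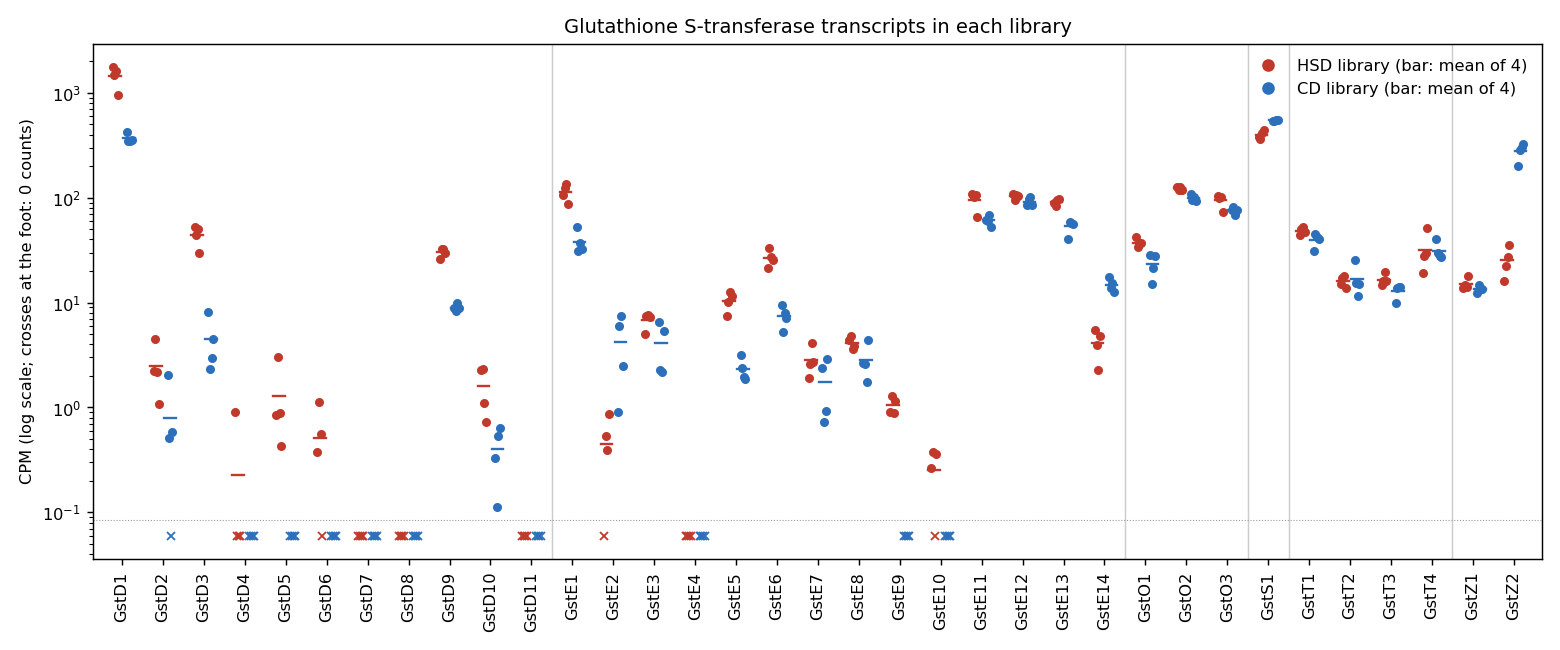
Level of each of the 35 GST genes in every library, in CPM on a log axis, with HSD libraries in red at the left of each gene and CD libraries in blue at the right; bars are means of 4 libraries, and crosses at the foot stand for 0 counts. The highest points belong to GstD1 in HSD (955 to 1749 CPM), and GstZ2 shows the widest fall (15.9 to 35.3 CPM in HSD, 200 to 322 CPM in CD).

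The family total was 2799 ± 369 CPM in HSD and 1803 ± 17.8 CPM in CD (SD, n = 4 each), a ratio of 1.55 that was above 1 under every scaling tried. Its make-up differed more than its size. Delta genes held 44.7% to 59.8% of family CPM in HSD libraries and 19.7% to 24.7% in CD libraries. Sigma held 12.4% to 19.3% in HSD and 30.2% to 30.5% in CD, and zeta held 0.968% to 2.34% in HSD and 11.8% to 18.6% in CD. The share of the epsilon genes overlapped between the diets, at 14.96% to 18.0% in HSD and 14.5% to 16.5% in CD. GstD1 by itself made up 51.3% ± 6.46 of family CPM in HSD and 20.4% ± 2.13 in CD (SD, n = 4 each). These class sums are descriptions and were not tested. Means in CPM carry the SD over the 4 libraries of a diet.

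**Figure D2:**
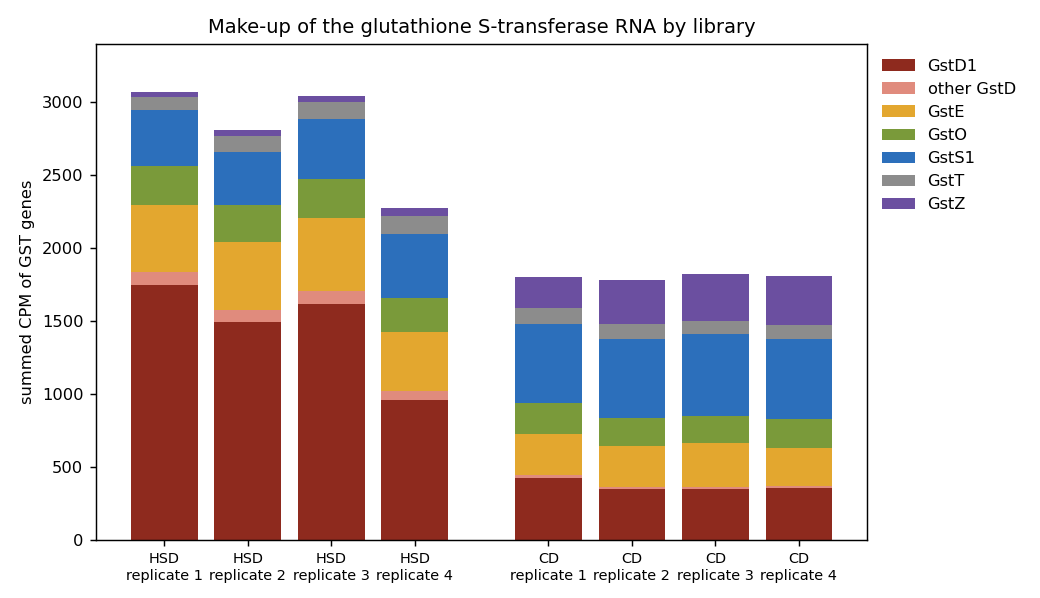
Summed CPM of the GST genes in each library, split into GstD1, the other delta genes and the remaining classes, with the 4 HSD libraries at the left and the 4 CD libraries at the right. The bars reach 2275 to 3069 CPM in HSD and 1780 to 1822 CPM in CD, with a larger GstD1 segment and a smaller zeta segment in HSD.

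Members differed far more in level than in their change. Per kilobase of exon, which makes levels of different genes comparable, GstD1 stood first in both diets, at 1723 CPM per kb in HSD and 437 CPM per kb in CD. GstS1 came next, at 175 CPM per kb in HSD and 241 CPM per kb in CD. The third place went to GstE1 in HSD (136 CPM per kb) and to GstZ2 in CD (120 CPM per kb). GstO3, GstE11, GstE13 and GstE12 followed in HSD, at 107, 101, 86.1 and 73.9 CPM per kb. At the other end, GstD7, GstD8, GstD11 and GstE4 were listed at 0 in all 8 libraries. RpL15, a ribosomal protein gene that every cell uses, was also listed at 0 throughout, so a listing at 0 was not read as absence.

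Of the 5 delta genes tested, 3 rose (60%, beside 25.9% of all genes) and none fell (beside 26.2% of all genes). The most abundant of them, GstD1, was 3.94-fold higher. The delta median of 1.98 is the value of GstD10, which is scarce, was not called and passed the filter mainly through HSD. GstD2, also not called, passed it mainly through HSD too. GstD1 (FBgn0001149; chromosome arm 3R, 12367817 to 12369268, minus strand, in the BDGP6 annotation) encodes an enzyme that can remove hydrogen chloride from the insecticide DDT. It had 1749, 1490, 1617 and 955 CPM in HSD libraries, against 425, 350, 345 and 354 CPM in CD libraries. Every HSD library was above every CD library, with HSD replicate 4 the lowest of its diet and CD replicate 1 the highest of its own. The log2 fold change was 1.98 (standard error 0.16, adjusted p = 3.17e-06), and 98.3% of genes tested had a lower mean level. Without those outlying libraries it was 2.23.

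GstD3 (FBgn0010039; 3R, 12373068 to 12373813) showed the largest rise among members with counts in both diets. Its values were 52.6, 43.7, 50.8 and 29.5 CPM in HSD and 8.08, 2.31, 2.94 and 4.51 CPM in CD. The log2 fold change was 3.33 (standard error 0.36, adjusted p = 2.43e-05), and the extreme libraries were again HSD replicate 4 and CD replicate 1. GstD9 (3R, 12366163 to 12367564) had 26.1, 32.8, 32.7 and 29.5 CPM in HSD and 8.82, 8.24, 9.87 and 8.92 CPM in CD. Its replicates lay close together in both diets, and the log2 fold change was 1.75 (standard error 0.15, adjusted p = 3.48e-06).

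The other delta genes were scarce. GstD10 had 2.29, 2.31, 1.11 and 0.721 CPM in HSD and 0.330, 0.113, 0.534 and 0.637 CPM in CD. The diets did not overlap, yet the log2 fold change of 1.98 (standard error 0.77) missed the threshold (adjusted p = 0.0504), which it passed without HSD replicate 4 (0.0403). GstD2 had 2.24, 4.51, 2.17 and 1.08 CPM in HSD and 2.06, 0.508, 0 and 0.584 CPM in CD. CD replicate 1 lay within the HSD range, and the log2 fold change was 1.68 (standard error 0.99, adjusted p = 0.179), or 2.74 without that library (adjusted p = 0.0430).

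Of the delta genes that were too low to test, 3 had counts in HSD libraries alone. GstD5 had 16, 56, 16 and 6 counts in HSD and 0 in each CD library. Set against a floor of 3 counts per library, it was at least 6.68-fold higher in HSD. GstD6 had 7, 21, 10 and 0 counts in HSD (2.65-fold higher against that floor). GstD4 had 17 counts in HSD replicate 1 and 0 in every other library.

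All 11 delta genes lie side by side on 3R, between 12364776 and 12385624, with gaps of 252 to 2702 bp between neighbours. GstD10, GstD9 and GstD1 are read from the minus strand, and the genes from GstD2 to GstD11 from the plus strand. GstD1 and its neighbours on either side (GstD9, and GstD3 beyond GstD2) were the members called. The genes from GstD4 onwards had no counts in any CD library. Such near relatives can share reads, and how reads with several alignments were counted is not given in the sources used here, so the split among them is uncertain.

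**Figure D3:**
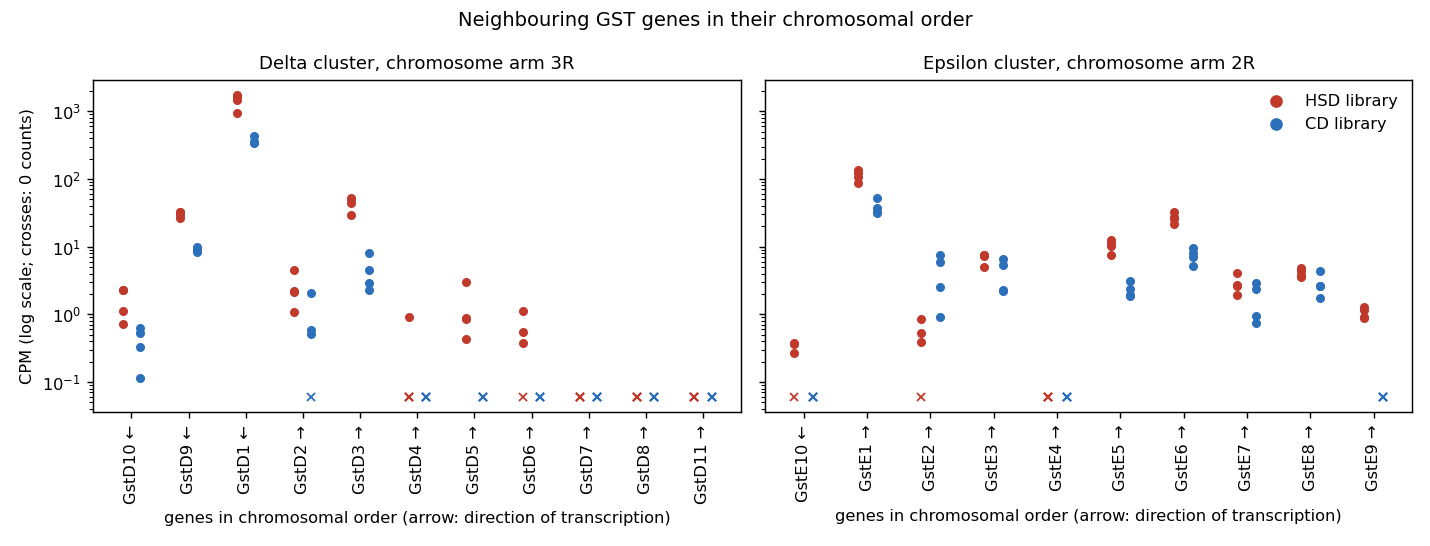
CPM on a log axis for the GST genes of the delta cluster (left) and the epsilon cluster (right) in chromosomal order, with HSD libraries in red at the left of each gene, CD libraries in blue at the right, and crosses for 0 counts. In the delta cluster the highest genes lie around GstD1, except that GstD2, between GstD1 and GstD3, reaches 4.51 CPM at most, and every gene from GstD4 onwards is low or at 0. In the epsilon cluster GstE1 is the highest in both diets, and GstE2, beside GstE1, is the one gene of its cluster called lower.

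Of 12 epsilon genes tested, 6 were higher (50%, beside 25.9% of all genes) and 2 lower (16.7%, beside 26.2% of all genes), with a median log2 fold change of 0.73. These counts include GstE9 and GstE2, which passed the filter mainly through 1 diet. The largest rises with counts in both diets were those of GstE5, GstE6 and GstE1, all in the cluster on 2R. GstE5 had 7.47, 10.2, 12.5 and 11.7 CPM in HSD and 3.13, 2.37, 1.93 and 1.86 CPM in CD, a log2 fold change of 2.17 (standard error 0.32, adjusted p = 0.000219). GstE6 had 21.5, 32.9, 27.1 and 25.7 CPM in HSD and 9.48, 5.25, 8.01 and 7.12 CPM in CD, a log2 fold change of 1.85 (standard error 0.22, adjusted p = 3.93e-05). In neither gene did the diets come near each other.

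GstE1 had 106, 123, 136 and 86.9 CPM in HSD and 52.5, 31.3, 36.8 and 32.1 CPM in CD. Its log2 fold change was 1.57 (standard error 0.19, adjusted p = 4.27e-05), with CD replicate 1 the highest CD library as in GstD1 and GstD3. GstE10, on the opposite strand, overlaps it, and the strand setting of the counting is not given in the sources used here. GstE10 had 5, 7, 0 and 5 counts in HSD and 0 in every CD library (at least 1.29-fold higher, too low to test).

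GstE9 was seen in HSD alone. It had 17, 24, 16 and 16 counts in HSD libraries and 0 in each CD library. Against the floor of 3 counts per library, which covers counting error only, it was 5.46-fold higher. Its adjusted p in the fit was 0.00220. As it passed the filter through HSD alone, its difference was in part a condition of being tested. GstE9 overlaps imd, a gene of the opposite strand. GstE2, a neighbour of GstE1, went the other way. It had 0, 0.537, 0.389 and 0.865 CPM in HSD and 0.907, 5.92, 7.41 and 2.50 CPM in CD, a log2 fold change of -3.23 (standard error 0.98, adjusted p = 0.0176). The highest HSD library lay just under the lowest CD library, and the call was lost without CD replicate 2 (0.0544), CD replicate 3 (0.0640) or HSD replicate 3 (0.0540).

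Of the 4 epsilon genes outside the cluster, GstE11 and GstE13 rose, GstE14 fell and GstE12 was not called. GstE13 averaged 91.3 ± 6.47 CPM in HSD and 53.2 ± 8.59 CPM in CD, with a log2 fold change of 0.78 (standard error 0.12, adjusted p = 0.000317). GstE11 averaged 95.3 ± 20.5 CPM in HSD and 60.8 ± 6.50 CPM in CD (0.65, standard error 0.16, adjusted p = 0.00487), and its HSD replicate 4, at 64.9 CPM, lay within the CD range. With ribosomal protein scaling the call of GstE11 was lost (adjusted p = 0.0864). GstE12, the epsilon member with the highest mean CPM over all 8 libraries (GstE1 was higher in HSD, and per kilobase), had 108, 94.9, 107 and 103 CPM in HSD and 84.5, 96.9, 101 and 84.6 CPM in CD. Its diets overlapped, and its log2 fold change of 0.17 (adjusted p = 0.123) turned to -0.18 with that scaling. GstE3, GstE7 and GstE8 of the cluster had log2 fold changes of 0.75, 0.70 and 0.55 and were not called. GstE12 and GstE13 each overlap a gene of the opposite strand, CG3894 and CG18659.

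GstE14, known as Noppera-bo, acts in ecdysteroid synthesis in the prothoracic gland, and it fell. It had 5.44, 3.92, 2.28 and 4.76 CPM in HSD and 17.7, 13.7, 15.3 and 12.5 CPM in CD, so the diets stood well apart. The log2 fold change was -1.85 (standard error 0.30, adjusted p = 0.000380). Prothoracic gland markers fell with it: all 6 of the tested markers, of 7 used, were called lower, beside 26.2% of all genes. Their summed level was 214 to 268 CPM in HSD and 450 to 553 CPM in CD. Npc1a and Start1, at 145 ± 2.85 and 57.5 ± 2.17 CPM in HSD, made up most of the HSD sum. Their log2 fold changes were -0.71 and -0.46, against -2.71 in sad, -2.73 in dib, -2.70 in sro and -3.35 in ouib. A further marker, spok, was listed at 0 in every library, which was not read as absence. The part of the gland markers in the fall of GstE14 was not tested.

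**Figure D4:**
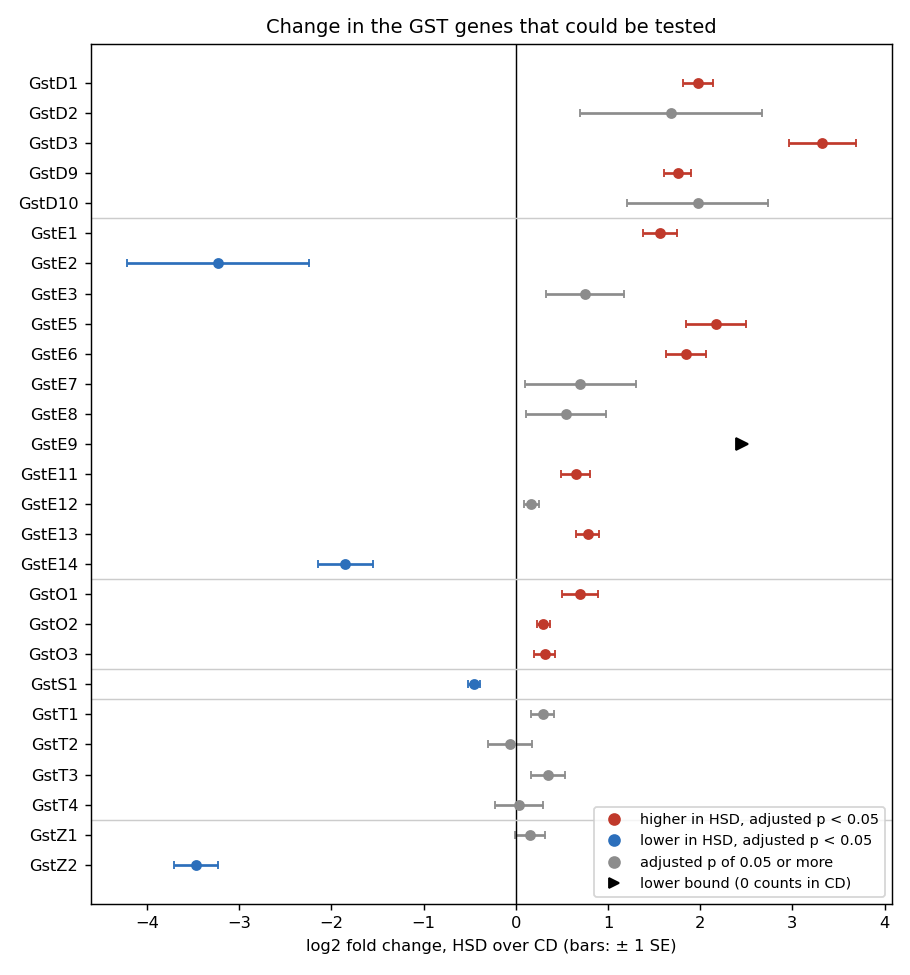
Log2 fold change of HSD over CD for each of the 27 tested GST genes, ordered by class, with bars of 1 standard error. Red marks genes called higher and blue genes called lower at an adjusted p under 0.05, and grey marks genes not called. The black arrowhead, labelled a lower bound, is GstE9 against the floor of 3 counts, which covers counting error only. Called values run from -3.47 in GstZ2 to 3.33 in GstD3.

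Omega genes were modestly higher with TMM scaling, all 3 of them called, beside 25.9% of all genes called higher. But with ribosomal protein scaling GstO2 and GstO3 turned to -0.054 and -0.049, and the call of GstO1 was lost (adjusted p = 0.197). That scaling moved the median of all genes to -0.35, and scaling on total counts moved it to -0.13. GstO2, which encodes an omega enzyme on chromosome arm 3L (8521429 to 8523501), had 126, 119, 127 and 118 CPM in HSD and 108, 96.0, 102 and 93.3 CPM in CD. The log2 fold change was 0.30 (standard error 0.07, adjusted p = 0.00485), with no overlap of the diets, and the call was lost with total counts (adjusted p = 0.0753). It lies across se, a gene of the opposite strand that had at most 7 counts in any library.

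GstO1, its neighbour 240 bp away, averaged 37.4 ± 3.61 CPM in HSD and 23.1 ± 6.37 CPM in CD, with a log2 fold change of 0.69 (standard error 0.19, adjusted p = 0.0109). GstO3 had 104, 98.4, 102 and 73.1 CPM in HSD and 76.7, 82.1, 68.6 and 75.9 CPM in CD. HSD replicate 4 was within the CD range, and the log2 fold change of 0.31 (standard error 0.12, adjusted p = 0.0411) lost its call in 5 of 8 fits that left out 1 library, with adjusted p of 0.00200 to 0.109 over those fits.

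GstS1 (FBgn0010226), the only sigma member, was lower in HSD by a small amount. It had 381, 364, 411 and 439 CPM in HSD and 544, 540, 556 and 549 CPM in CD. The CD libraries lay close together, and the diets did not overlap. The log2 fold change was -0.46 (standard error 0.07, adjusted p = 0.000167). It was negative and called under every alternative tried, and ranged from -0.80 to -0.41 over them.

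None of the 4 theta genes was called, beside 52.1% of all genes. GstT1, the most abundant of them, had 44.2, 50.5, 52.1 and 46.8 CPM in HSD and 31.1, 45.0, 41.8 and 40.1 CPM in CD, a log2 fold change of 0.29 (standard error 0.12, adjusted p = 0.0703). The highest CD library lay just over the lowest HSD library, and without CD replicate 2 the adjusted p was 0.0354. GstT3 had 14.6, 16.0, 19.4 and 16.1 CPM in HSD and 9.81, 13.8, 14.2 and 14.1 CPM in CD (log2 fold change 0.35, adjusted p = 0.142). GstT2 and GstT4 had no steady direction.

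GstT2, which overlaps CG12926 on the opposite strand, had 15.04, 17.0, 18.1 and 13.9 CPM in HSD and 25.3, 15.3, 11.5 and 14.98 CPM in CD. Its log2 fold change of -0.064 (adjusted p = 0.846) became 0.22 without CD replicate 1, the highest library. GstT4 had 19.4, 27.6, 29.7 and 51.2 CPM in HSD and 40.0, 29.4, 28.0 and 27.4 CPM in CD. The highest library of each diet was again HSD replicate 4 and CD replicate 1. These libraries had the most RNA of their diets from gut and Malpighian tubule markers, mostly that of Jon65Aiv. They also had the most from fat body markers (3431 CPM in HSD replicate 4, 2389 CPM in CD replicate 1). The same held for muscle markers (505 CPM in HSD replicate 4, 495 CPM in CD replicate 1). The part of these tissues in the GstT4 values was not tested. The log2 fold change of GstT4 was 0.034 (adjusted p = 0.927), and -0.28 without HSD replicate 4.

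The zeta genes diverged. GstZ2 (FBgn0037697; 3R, 9456815 to 9460652) had 15.9, 22.3, 27.4 and 35.3 CPM in HSD and 200, 288, 306 and 322 CPM in CD. Every HSD library was far under every CD library, and the log2 fold change of -3.47 (standard error 0.24, adjusted p = 9.78e-07) was the largest fall of the family. Over all alternatives it ranged from -3.80 to -3.30. GstZ1, 268 bp away on the same strand, had 13.8, 14.8, 14.1 and 17.9 CPM in HSD and 12.5, 14.8, 13.6 and 13.4 CPM in CD. Its diets overlapped, and its log2 fold change was 0.15 (standard error 0.17, adjusted p = 0.475), or -0.19 with ribosomal protein scaling. The zeta sum was 40.4 ± 9.83 CPM in HSD and 293 ± 55.0 CPM in CD (SD, n = 4 each), which is 7.25 times as much in CD.

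Enzymes that supply and reuse glutathione were followed in the same fit. Of 15 tested genes of glutathione synthesis, turnover and use, 5 were higher and 3 lower, not far from the shares of all genes (25.9% higher and 26.2% lower), with a median log2 fold change of 0.24. The genes named here are those with the largest changes among the called ones. Trxr1, the thioredoxin reductase, averaged 703 ± 57.1 CPM in HSD and 395 ± 37.7 CPM in CD (0.83, standard error 0.08, adjusted p = 1.24e-05). Trx2, a thioredoxin, averaged 448 ± 45.3 CPM in HSD and 220 ± 10.9 CPM in CD (1.03, standard error 0.08, adjusted p = 2.10e-06). MRP, a transporter of the class that exports glutathione conjugates, averaged 194 ± 10.6 CPM in HSD and 106 ± 3.65 CPM in CD (0.88, standard error 0.07, adjusted p = 1.69e-06). In these genes all HSD libraries were above all CD libraries.

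CG4829, one of the gamma-glutamyl transferase genes, whose enzymes break glutathione down, fell. It averaged 4.77 ± 1.09 CPM in HSD and 16.0 ± 1.14 CPM in CD (-1.75, standard error 0.23, adjusted p = 9.31e-05). Gclc and Gclm, which encode the subunits of the rate-limiting enzyme of glutathione synthesis and were singled out after their values were seen, had log2 fold changes of 0.0013 (standard error 0.11, adjusted p = 0.994) and 0.24 (standard error 0.21, adjusted p = 0.385). Gclc averaged 36.2 ± 0.640 CPM in HSD and 36.1 ± 4.84 CPM in CD.

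Genes that supply NADPH, the reductant of the thioredoxin system, were higher in 5 of 7 cases and lower in none, with a median log2 fold change of 1.13. The shares of all genes were 25.9% higher and 26.2% lower. With ribosomal protein scaling 4 of the 7 were higher and 1 was lower. Nmdmc, a mitochondrial folate enzyme named for its NAD-dependent activity and so not a plain source of NADPH, averaged 90.1 ± 13.0 CPM in HSD and 24.9 ± 4.75 CPM in CD (1.85, standard error 0.15, adjusted p = 3.00e-06). Men, a malic enzyme, averaged 239 ± 34.0 CPM in HSD and 102 ± 6.28 CPM in CD (1.23, standard error 0.10, adjusted p = 3.50e-06). Pgd and Zw, the dehydrogenases of the pentose phosphate pathway, had log2 fold changes of 1.19 (standard error 0.15) and 1.13 (standard error 0.12).

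Among 3 regulators, 1 was called, beside 52.1% of all genes. cnc, the gene of CncC, averaged 291 ± 37.9 CPM in HSD and 225 ± 16.2 CPM in CD, a log2 fold change of 0.37 (standard error 0.09, adjusted p = 0.00665), a call that was lost with ribosomal protein scaling. Counts of cnc cover all isoforms of the gene together. Keap1 averaged 21.6 ± 1.63 CPM in HSD and 19.7 ± 2.01 CPM in CD (0.14, standard error 0.14, adjusted p = 0.436). Other proteins with a GST fold were higher in 3 of 4 tested cases, beside 25.9% of all genes. On the log2 scale, Clic, a chloride channel relative, was higher by 0.68 (standard error 0.08). AIMP3, a part of the tRNA synthetase complex, was higher by 0.49 (standard error 0.16). The translation factor eEF1gamma was higher by 0.31 (standard error 0.06). With ribosomal protein scaling Clic kept its call (0.34, adjusted p = 0.0248), AIMP3 (0.15) and eEF1gamma (-0.035) lost theirs, and gfzf, the fourth gene tested, which was not called with TMM, was lower (-0.47, adjusted p = 0.00230).

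**Figure D5:**
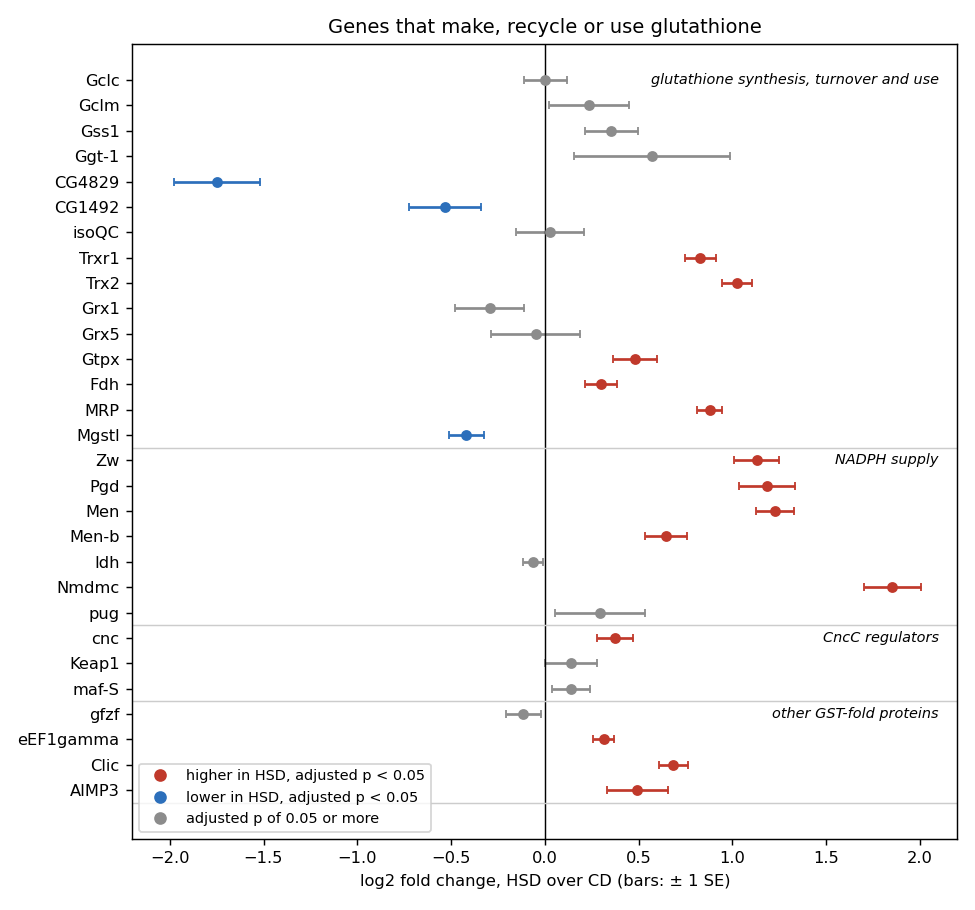
Log2 fold change of HSD over CD, with bars of 1 standard error, for the tested genes that make, recycle or use glutathione, supply NADPH, regulate CncC targets or share the GST fold. Red marks genes called higher, blue genes called lower and grey genes not called; Nmdmc (1.85) and CG4829 (-1.75) lie at the ends, and Gclc lies at 0.0013.

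The remaining marker lists give the tissue background of the family's values. Their call counts stand beside 25.9% higher and 26.2% lower of all genes tested. Muscle markers, of which 2 of 8 tested were higher and 4 lower, summed to 381 to 505 CPM in HSD and 406 to 495 CPM in CD. The largest part of these sums was sls, which was not called (226 ± 31.3 CPM in HSD, 213 ± 14.4 CPM in CD). Log2 fold changes were -2.50 in Mhc, -2.13 in Mlc1, -2.30 in Act57B and -1.34 in Act87E, and 0.93 in Mlc2 and 1.08 in bt. Fat body markers (0 higher and 1 lower of 8) summed to 856 to 3431 CPM in HSD and 1653 to 2389 CPM in CD. Haemocyte markers (0 higher and 1 lower of 8) summed to 212 to 417 CPM in HSD and 237 to 319 CPM in CD. Trachea markers (3 higher and 1 lower of 4) summed to 944 to 1093 CPM in HSD and 891 to 1047 CPM in CD. Of gut and Malpighian tubule markers 2 of 5 tested were lower, and of 7 salivary gland markers none was called. HSD replicate 4 was the lowest HSD library in 6 of the 12 GST genes called higher (50%), beside 51.4% of all genes called higher. Leaving out HSD replicate 4 and CD replicate 1 together, 15 GST genes were called higher and 4 lower. The part of these cell types in the GST values was not tested.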

How the data were processed

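Each of the 8 libraries (4 HSD, 4 CD) was made from poly(A) RNA of pooled dissected tumours with a stranded kit and sequenced as paired reads. Per the submitters' processing notes and methods, the authors used CASAVA 1.8.4, trimmed reads with Trim Galore 0.4.4, aligned them to dm3 with TopHat2 2.0.11 and counted them with featureCounts. The deposited values are raw counts per gene. The strand setting and the treatment of reads with several alignments are not given in the sources used here.

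Counts were tested with edgeR 4.0.16 in R 4.3.3: filterByExpr, TMM (trimmed mean of M values) scaling, a quasi-likelihood F-test of diet (two-sided) and Benjamini-Hochberg adjustment over 9257 genes, called under 0.05. CPM are counts per scaled library size times 1e+06. The SE is the log2 fold change divided by the square root of F. The study used DESeq2, which is an alternative here (version 1.42.0), as are limma-voom (limma 3.58.1), other scalings, other filters, each library left out and replicate number as a block. The test was first run on simulated counts with the same dispersion for all genes, few changed genes and no added zeros. That run does not cover the broad change or the many zeros of these data. The study describes the libraries as biologically independent samples; the labels do not say how animals were pooled. Reads carry no molecular identifiers, so floors of 3 counts cover counting error only. Among genes expected at 5 to 20 counts, 15.3% to 41.0% were at 0 in a library (at most 0.0917% by Poisson counting), so low genes are less certain than their counts imply. No pair of libraries of 1 diet agreed within sampling noise (chi-square per degree of freedom at least 11.4).

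Of 15682 identifiers, 15002 matched a current symbol; positions and exon lengths come from BDGP6, a different build, and none was converted. Members and lists were chosen with earlier results of these data known. By the naming rule, per-library values are given for members called with at least a 2-fold change, for the most abundant member of each class, and for members whose call or sign turns on 1 library; other lists name at most 4 genes, plus cnc and Keap1. GstT3, GstZ1, Gclc, Gclm, gfzf and the named cell type markers were added to these after their values were seen. The list genes Glo1, phm, nvd, btl and dys were not used here, and CG10362, listed in error, was left out. A comparison of protein and promoter sequences was not run.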

Additional observations from a re-analysis of the deposited data

Results flagged for a closer look

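In groups of 4 libraries, the gap between an extreme library and its nearest neighbour was divided by the range of log2(CPM + 0.1), and 6 of 53 groups passed Dixon's limit for 4 values, where chance would give about 2.65 (5%). CD replicate 1 stood apart in 3 of them: it was high in GstD1 (425 CPM, nearest library 354 CPM, ratio 0.880), low in GstE13 (40.5 CPM, nearest 56.0 CPM, ratio 0.853) and low in GstT3 (9.81 CPM, nearest 13.8 CPM, ratio 0.914). HSD replicate 4 stood apart in 2: it was low in GstE11 (64.9 CPM, nearest 102 CPM, ratio 0.880) and in GstO3 (73.1 CPM, nearest 98.4 CPM, ratio 0.854). HSD replicate 1 was low in GstE3 (5.07 CPM, nearest 7.35 CPM, ratio 0.914).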

How the results depend on the processing

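Under 18 alternatives, 11 of the 16 called GST genes were called in every alternative that tested them and 14 kept their sign in all; the exceptions in sign were GstO2 and GstO3, with ribosomal protein scaling. Leaving out 1 library at a time gave 11 to 14 genes higher and 3 to 4 lower, with 3 to 5 delta genes higher and 1 to 2 epsilon genes lower. Delta genes higher numbered 5 with no filter beyond 1 count and 6 without CD replicate 1 and HSD replicate 4 together. Epsilon genes lower numbered 1 with at least 10 counts in every library, and 1 at an adjusted p under 0.01.

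With ribosomal protein scaling, the share of calls that were higher fell to 21.0% over all genes (1054 higher, 3968 lower), against 49.8% with TMM, and total counts gave 38.1% (1849 higher, 2998 lower). The log2 ratios of summed CPM, HSD over CD, then became 1.63 for delta (TMM 2.0), 0.36 for epsilon (0.71), -0.00156 for omega (0.36), -0.80 for sigma (-0.46), -0.18 for theta (0.17), -3.19 for zeta (-2.86) and 0.27 for the family (0.63). Total counts gave 0.57 for epsilon, 0.22 for omega and -0.59 for sigma, and omega was 0.46 without CD replicate 1 and HSD replicate 4. Among lists, ribosomal protein scaling left 3 glutathione genes higher, 1 NADPH gene lower, 0 CncC regulators higher, and 1 GST-fold gene higher and 1 lower; total counts gave 1 NADPH gene and 1 GST-fold gene lower.

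Signs also turned in uncalled or weakly called genes. Ribosomal protein scaling gave GstE12 -0.18, GstO2 -0.054, GstO3 -0.049, GstT1 -0.055, GstZ1 -0.19 and GstT4 -0.29. GstT2 was 0.045 with limma-voom, 0.28 without CD replicate 1 and HSD replicate 4, and -0.19 to 0.22 over fits that left out 1 library. GstT4 was -0.022 with upper quartile scaling, -0.093 with total counts, -0.0036 with at least 10 counts, -0.059 with limma-voom, -0.032 with the block, -0.13 without both libraries, and -0.28 to 0.22 over fits that left out 1. The cause of these changes was not tested.

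Replicate numbers were shared by the diets, but same-numbered libraries did not deviate together (correlations of -0.15 to 0.075, and no HSD library was closest to the CD library of its number). With replicate number as a block, 12 GST genes were higher and 4 lower: GstO3 lost its call (adjusted p = 0.0572), GstT1 gained one (0.0430), and 4609 genes were called in all.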

Other observations

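Zeta GSTs act in the breakdown of tyrosine, and 6 other genes that make, use or break down tyrosine were looked up after the fall of GstZ2 had been seen. No tested gene of the breakdown route was called. Faa, which encodes the enzyme after the zeta step, averaged 2.43 ± 0.759 CPM in HSD and 2.21 ± 1.17 CPM in CD (SD, n = 4 each, edgeR adjusted p = 0.864), and Tat averaged 1.19 ± 0.775 CPM in HSD and 1.04 ± 0.754 CPM in CD (adjusted p = 0.895). Hpd and hgo were too low to test, and Hpd was at 0 in every HSD library and at 0 to 3.38 CPM in CD libraries. ple, tyrosine hydroxylase, which turns tyrosine towards dopamine, averaged 38.1 ± 9.91 CPM in HSD and 15.2 ± 1.66 CPM in CD (log2 fold change 1.33, SE 0.20, edgeR adjusted p = 0.000206). Hn, phenylalanine hydroxylase, which makes tyrosine, averaged 12.2 ± 7.75 CPM in HSD and 5.37 ± 2.65 CPM in CD (adjusted p = 0.0551), with 23.8 CPM in HSD replicate 4.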
